A study of Mus musculus with 24 samples.

Results

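The genes described are the kinases Aurora A, B and C (Aurka, Aurkb, Aurkc), Polo-like kinases 1 and 2 (Plk1, Plk2) with the Plk1 activator Bora, the Greatwall kinase Mastl with its substrates Ensa and Arpp19, and the oocyte kinase Mos. They were taken by symbol from the deposited expression table, where all 10 had a row, of 16940 genes in all. All 10 also passed the filter on low values, at least 1 RPKM in at least 2 of the 16 libraries. Plk2 passed it through 4 WT libraries of fully grown oocytes alone and was below 1 RPKM in the other 12. A gene admitted that way had to differ between groups, so counts of calls that hold it are also given over the other 9 genes, and the differences of Plk2 are given as descriptions. RPKM is a read level scaled to library size and per kilobase of gene, so levels can be compared between genes.

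RNA was sequenced from mouse oocytes of strain B6/129 that do or do not carry a deletion of Snf2h, the chromatin remodelling ATPase encoded by Smarca5, to follow its part in oocyte growth and meiosis. WT oocytes were Snf2h(fl/fl), and KO oocytes carried ZP3-Cre with the same floxed alleles, so all groups share the floxed gene and only KO has Cre. The 4 stages were GO1, growing oocytes 40 to 45 µm wide, GO2, growing oocytes 50 to 55 µm wide, and nFGO and FGO, both fully grown and over 70 µm, taken without and after hormone. A library held 20 oocytes, with 2 libraries in each of the 8 groups. ZP3 is expressed in growing oocytes, so Cre acts during growth, and an effect of the Cre transgene cannot be told apart from loss of Snf2h. Animal ages are not given, and no label says that replicates came from separate animals, so p-values measure only the spread between these samples, which may be technical. The molecule is given as polyA RNA for nFGO and as total RNA for the other 12 libraries, and nFGO entered the series later, so batch and stage cannot be told apart for nFGO. RPKM is scaled to library size, so a difference is one in share of the library, and the amount of RNA per oocyte is not given.

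As background, a mouse oocyte grows while arrested in meiotic prophase and stores the mRNAs that it later translates when meiosis resumes. Entry into division is driven by Cdk1 with cyclin B. Aurora A phosphorylates Plk1 with the help of Bora, and Plk1 promotes Cdk1 activation and spindle assembly. Greatwall phosphorylates Ensa and Arpp19, which then inhibit the phosphatase PP2A-B55 that would reverse Cdk1 phosphorylation. Mos is a germ cell kinase that starts the MAP kinase cascade and holds the mature egg in metaphase arrest. The cDNA kit primes on poly(A) tails, and stored oocyte mRNAs can have short tails, so a level read here may also follow tail length.

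Smarca5 was at 13.9 to 48.7 RPKM in the WT libraries and at 0.701 to 2.06 RPKM in the KO libraries, and it was lower in KO at every stage (limma adjusted p 7.81e-05 to 0.000669). WT FGO replicate 2, at 13.9 RPKM, stood apart from the other 7 WT libraries, none of which was below 37.1 RPKM. The main results that use WT FGO are therefore given with and without it. Library totals ran from 832384 to 1011538 RPKM, 12613 to 12919 genes reached 1 RPKM, and the r between replicates, taken over genes that are not independent, was 0.984 to 0.992. The read depth of the libraries is unknown, so no counting interval can be given. All 10 oocyte markers listed were in the table and at least 12.1 RPKM in every library. Of 13 granulosa or cumulus cell markers 6 were in the table. Cyp19a1 led them in fully grown oocytes and KO GO2, and Nr5a2 led them in GO1 and WT GO2. Their sum moved with genotype, in directions that differed between stages. It was 42.6 to 44.9 RPKM in WT nFGO and 63.7 to 72.1 RPKM in KO nFGO. At FGO it was 36.3 to 45.2 RPKM in WT and 46.3 to 51.8 in KO. The same sum was 16.7 to 22.1 RPKM in WT GO2 and 26.6 to 33.4 RPKM in KO GO2, and 20.5 to 21.4 in WT GO1 and 14.3 to 18.2 in KO GO1. The markers did not all move alike. Mean Cyp19a1 was 4.01 RPKM in WT GO2 and 13.5 in KO GO2. In WT and KO it was 26.3 and 41.4 at nFGO, and 27.4 and 35.2 at FGO. Kitl went the other way in fully grown oocytes, 5.56 in WT and 4.05 in KO at nFGO, and 3.93 and 2.56 at FGO. Inha and Inhba were each at 0 in 1 library. The part of these markers in the KO-WT differences below was not tested.

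Start-site regions of 5 of these genes are shown: Aurka, Plk1, Plk2 and Mastl, called higher late in WT growth, and Aurkc, which was not. The call of Plk2 is one that its way through the filter made likely. The windows run from 250 bases before to 50 bases after the start given by RefSeq (build GRCm38.p6), 5′ to 3′ on the gene strand. RefSeq windows were matched for 7 of the 10 genes. They lie at chr2:172370521-172370820 (minus strand, Aurka), chr7:122159185-122159484 (plus, Plk1), chr13:110394794-110395093 (plus, Plk2), chr2:23155975-23156274 (minus, Mastl) and chr7:6995135-6995434 (plus, Aurkc). Capitals mark matches, on either strand, to TTTGAA (the cell cycle genes homology region), CCAAT (the CCAAT box, read as ATTGG on the other strand) or TGACGTCA (the cAMP response element), and no matches overlap.
Aurka: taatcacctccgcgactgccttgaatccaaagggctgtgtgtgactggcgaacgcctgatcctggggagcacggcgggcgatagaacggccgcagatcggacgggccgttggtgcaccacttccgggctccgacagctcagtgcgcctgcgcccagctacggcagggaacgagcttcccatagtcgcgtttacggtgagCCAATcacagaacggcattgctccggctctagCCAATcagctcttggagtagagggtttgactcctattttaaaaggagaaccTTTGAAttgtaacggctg
Plk1: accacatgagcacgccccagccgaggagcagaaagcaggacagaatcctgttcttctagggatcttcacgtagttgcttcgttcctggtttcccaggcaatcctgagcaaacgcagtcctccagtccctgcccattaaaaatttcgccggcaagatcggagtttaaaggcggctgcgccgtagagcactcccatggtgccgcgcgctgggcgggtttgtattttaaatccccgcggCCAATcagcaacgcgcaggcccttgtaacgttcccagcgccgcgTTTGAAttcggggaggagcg
Plk2: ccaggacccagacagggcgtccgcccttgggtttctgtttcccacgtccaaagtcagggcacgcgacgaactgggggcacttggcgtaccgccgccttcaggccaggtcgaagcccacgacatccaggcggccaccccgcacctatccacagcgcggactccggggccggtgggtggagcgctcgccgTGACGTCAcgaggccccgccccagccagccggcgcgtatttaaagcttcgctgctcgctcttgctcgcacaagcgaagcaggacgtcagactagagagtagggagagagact
Mastl: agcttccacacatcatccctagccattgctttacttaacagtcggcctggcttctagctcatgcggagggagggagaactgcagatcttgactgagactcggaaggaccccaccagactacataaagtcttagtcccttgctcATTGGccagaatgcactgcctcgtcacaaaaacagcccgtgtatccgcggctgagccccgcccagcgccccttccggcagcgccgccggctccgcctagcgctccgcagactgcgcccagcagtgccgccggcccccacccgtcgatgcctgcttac
Aurkc: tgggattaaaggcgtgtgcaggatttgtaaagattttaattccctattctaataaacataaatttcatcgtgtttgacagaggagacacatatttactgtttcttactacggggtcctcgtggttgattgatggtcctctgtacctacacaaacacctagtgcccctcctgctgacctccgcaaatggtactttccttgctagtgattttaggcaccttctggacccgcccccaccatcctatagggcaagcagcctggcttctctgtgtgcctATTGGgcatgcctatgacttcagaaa

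Aurka and Plk1 each held TTTGAA just after the start, at positions 33 and 31, and CCAAT just before it, at -51 and -19 in Aurka and at -14 in Plk1. TTTGAA was in 17.8% and CCAAT in 37.4% of all 32544 RefSeq windows of this length. Plk2 held the complete cAMP response element at -62, which 1.8% of windows held. Mastl and Aurkc each held CCAAT on the other strand, at -107 and 25. Among genes whose windows are not shown, Ensa held CCAAT on the other strand at -163, -76 and -34. Ensa was not called from GO2 to FGO in WT (-0.43). Arpp19 held none of these motifs. So CCAAT was not limited to genes called higher late in growth. TATAAA, the TATA box, was in 13.6% of all windows and in no window of these 7 genes. These motifs were chosen after the sequences had been seen, and a match is a description of letters, not a bound site.

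The 10 genes spanned more than 3 orders of magnitude in level, and Mos was the most abundant. Mean levels over the 16 libraries were 713 RPKM for Mos (rank 198 of 16940 genes), 543 for Arpp19 (rank 300), 224 for Aurkc, 186 for Aurka, 130 for Mastl, 90.3 for Plk1, 42.2 for Bora, 20.2 for Ensa and 11.2 for Aurkb. Plk2 was last at 0.387 RPKM (rank 15070). So the germ cell Aurora kinase, Aurkc, was at a higher mean level than Aurka, and both were far above Aurkb. The order of group means was kept in most groups. Arpp19 was above Mos only in WT nFGO, and Aurka above Aurkc only in KO GO2, in both cases with no overlap between the libraries. Neighbours whose libraries overlapped were Aurkc and Aurka in WT nFGO, WT FGO and KO FGO, Aurka and Mastl in WT nFGO, Mastl and Plk1 in KO GO1 and KO GO2, and Ensa and Aurkb in WT FGO.

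**Figure D1:**
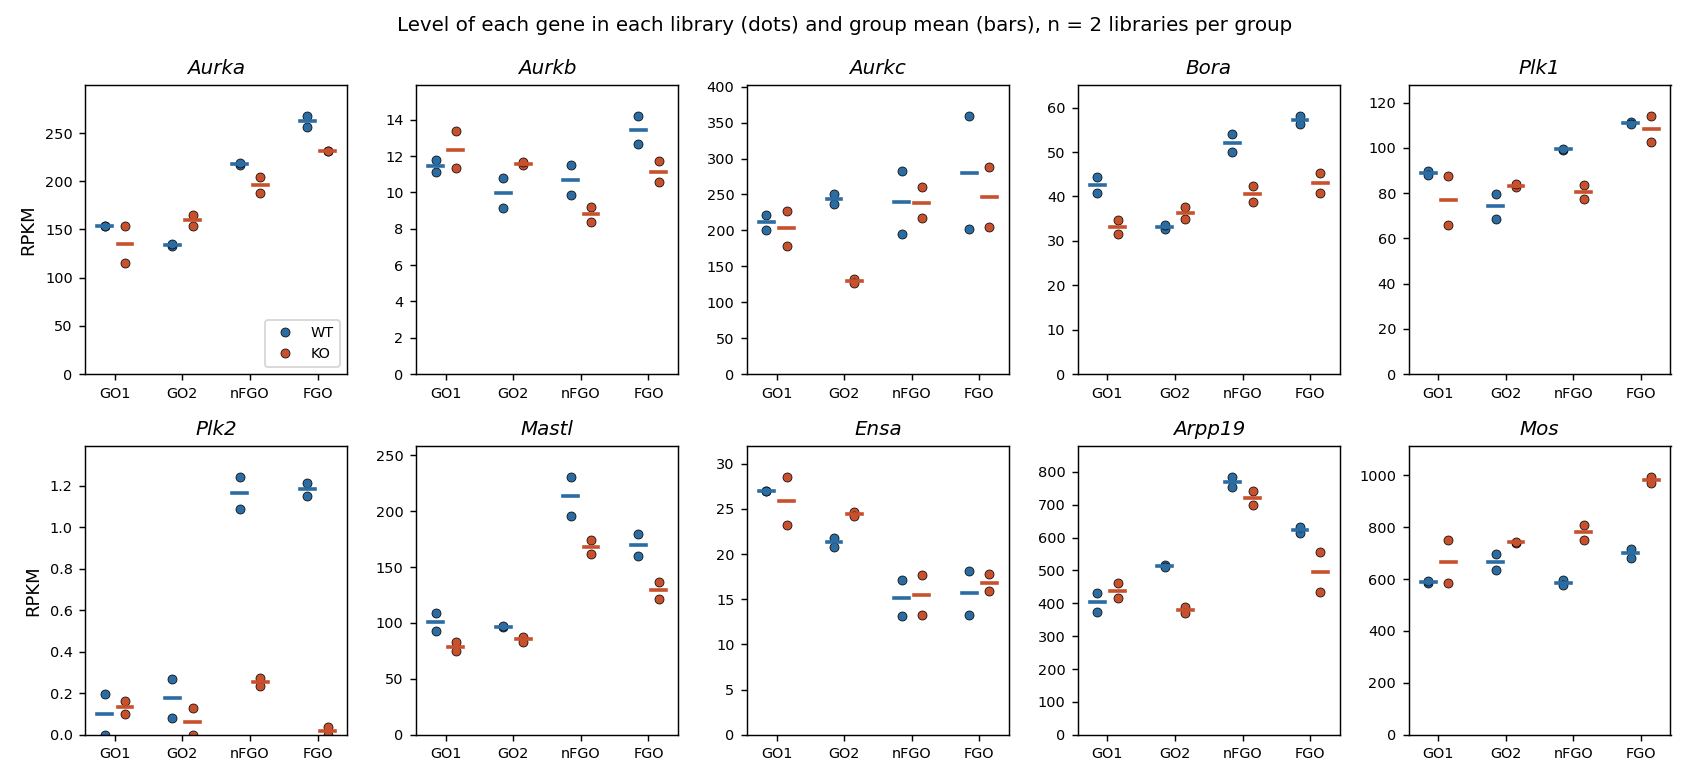
RPKM (linear axes from 0, each gene on its own scale) of the 10 genes at 4 stages; dots are libraries, bars are means of 2 libraries, blue is WT and red is KO. Mos stood higher in KO than in WT in both libraries at nFGO and FGO, Plk2 was above 1 RPKM only in WT nFGO and WT FGO, and Mastl was lower in KO at each stage.

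WT oocytes were compared along growth to see which of these mRNAs build up before meiosis. Differences are given throughout as log2(RPKM + 1) ± SE from limma fitted across 14557 genes, with Benjamini-Hochberg adjusted p, and "called" means an adjusted p under 0.05. From GO1 to GO2 none of the 10 was called (7.55% of all genes were), with 2 at an unadjusted p under 0.05 (25.7% of all genes). Bora was nearest, at 40.7 and 44.4 RPKM in WT GO1 and 32.7 and 33.6 in WT GO2 (-0.35 ± 0.105, adjusted p = 0.0628), and Arpp19 went the other way (0.35 ± 0.110, adjusted p = 0.0711).

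From GO2 to FGO in WT, 5 of the 9 genes other than Plk2 were called higher and 0 lower (6 of 10 with Plk2), where 26.3% of all genes were called higher and 22.1% lower. Aurka, which organises spindle poles, rose from 133 and 135 RPKM in GO2 to 268 and 256 RPKM in FGO, a log2 difference of 0.96 ± 0.112 (adjusted p = 3.01e-05). Plk1, at 79.5 and 68.7 RPKM in GO2, reached 111 RPKM in both FGO libraries (0.58 ± 0.124, adjusted p = 0.00228). Its activator Bora rose from 32.7 and 33.6 to 56.4 and 58.1 RPKM (0.77 ± 0.105, adjusted p = 9.6e-05). For Aurka, Plk1 and Bora, which act in sequence, both FGO libraries lay above both GO2 libraries, as they did for 40% of all genes. Mastl rose from 96.0 and 97.4 to 179 and 159.6 RPKM (0.80 ± 0.115, adjusted p = 0.000143). Plk2, a Polo family kinase best known from centrioles and neurons, was at 0.271 and 0.0797 RPKM in GO2 and at 1.15 and 1.22 RPKM in FGO (0.90 ± 0.148), a difference that its way through the filter made likely. Aurka, Plk1, Bora and Mastl kept the call with each of the 4 libraries left out.

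Aurkb, the chromosomal passenger kinase of somatic cells, rose least of the called genes, from 10.8 and 9.15 RPKM to 12.6 and 14.2 RPKM (0.39 ± 0.145, adjusted p = 0.0394). Its call was lost without WT GO2 replicate 2, WT FGO replicate 1 or WT FGO replicate 2 (adjusted p = 0.234, 0.0568 and 0.186). It was also lost with quantile normalization (adjusted p = 0.0565), with equal library medians (0.0514) and with only the groups compared in the fit (0.110). The median over the 9 genes was 0.39, and that over all genes tested was 0.04. Without WT FGO replicate 2, which leaves 1 WT FGO library, the call of Aurkb was lost and the difference of Ensa was -0.64. Which genes were called thus depends on single libraries, that one among them.

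The other 4 genes were not called from GO2 to FGO. Mos stood at 697 and 634 RPKM in WT GO2 and at 717 and 682 RPKM in WT FGO (0.07 ± 0.101, 95% interval -0.15 to 0.29, adjusted p = 0.576). Aurkc was at 251 and 237 RPKM in GO2, and its FGO libraries were far apart at 201 and 359 RPKM, around both GO2 values (0.14 ± 0.253, adjusted p = 0.670). The Greatwall substrates leaned in opposite directions. Arpp19 stood at 515 and 509 RPKM in GO2 and at 613 and 632 in FGO (0.28 ± 0.110, adjusted p = 0.0508), and Ensa at 20.8 and 21.7 in GO2 and at 13.3 and 18.1 in FGO (-0.43 ± 0.182, adjusted p = 0.0694). Without WT FGO replicate 2 Ensa was called lower (-0.64, adjusted p = 0.0286).

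Between WT nFGO and WT FGO, both fully grown, none of the 10 was called (2.69% of all genes were), with 4 at an unadjusted p under 0.05 (16.9% of all genes), and none was called without WT FGO replicate 2. The 4 were Aurka (0.26 ± 0.112, adjusted p = 0.254) and Mos (0.26 ± 0.101, adjusted p = 0.219), at larger values after hormone, and Mastl (-0.33 ± 0.115, adjusted p = 0.167) and Arpp19 (-0.30 ± 0.110, adjusted p = 0.178), at smaller ones. This comparison also crosses the label and batch difference of the nFGO libraries.

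**Figure D2:**
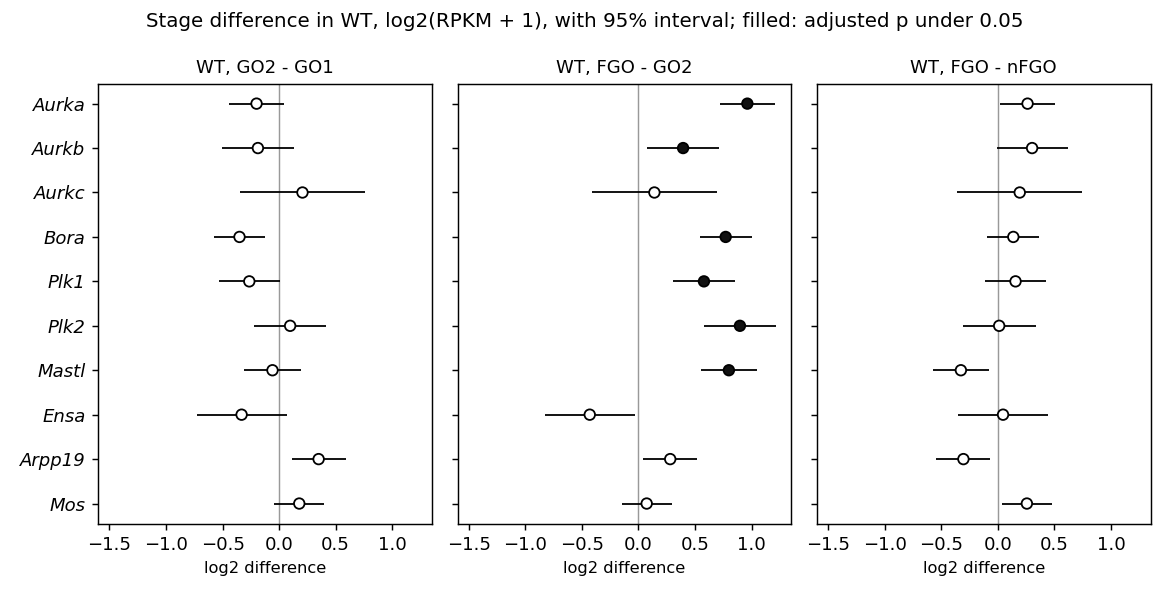
Stage differences in WT for the 10 genes in log2(RPKM + 1), as points with 95% intervals from limma over 14557 genes, n = 2 libraries per stage; filled points have an adjusted p under 0.05. From GO2 to FGO 6 points are filled, Aurka furthest right (0.96) and Plk2, admitted through WT FGO and nFGO alone, at 0.90, and none was called in the other comparisons.

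KO and WT were compared at each stage to see how loss of Snf2h touches these mRNAs. At GO1 none of the 10 was called (6.63% of all genes were), with 2 at an unadjusted p under 0.05 (24.6% of all genes). At GO2, 0 were called higher and 2 lower, Aurkc and Arpp19, against 2.96% and 4.68% of all genes. With quantile normalization the GO2 count was also 2, but of other genes: Aurka (0.35, adjusted p = 0.0484) and Mos (0.35, adjusted p = 0.0472) were higher. At nFGO, 1 of the 9 genes other than Plk2 was called higher, Mos, and 1 lower, Bora, against 6.77% and 9.4%. At FGO, 1 of the 9 was called higher, Mos, and 2 lower, Bora and Mastl, against 7.67% and 10.2%. The difference averaged over the 4 stages called 1 of the 9 higher, Mos, and 3 lower, Bora, Mastl and Arpp19, against 14.3% and 18.8%. With Plk2 the counts lower were 2 at nFGO, 3 at FGO and 4 on average. The same 5 passed without the nFGO stage, where 9.2% of all genes were called higher and 13.7% lower.

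Apart from Plk2, 1 call at a single stage held with each library left out in turn, that of Mos at FGO. Without WT FGO replicate 2, FGO calls went from 4 (17.8% of all genes) to 2 of 10, Plk2 and Mos (11% of all genes), and the average over stages called 5 with that library (33%) and without it (30.5%). All-gene calls split 314 higher and 651 lower at GO1, and 427 and 554 with library medians made equal, while at GO2 the split was 431 and 681, and 551 and 527 after quantile normalization. The median difference of the 9 genes other than Plk2, averaged over stages, was -0.10, and that of all genes -0.01. With 2 libraries against 2, separate groups are common, so the order of libraries given below is to be read against the share of all genes with the same separation: KO was lower without overlap for 27.7% of genes at GO1, 30.8% at GO2, 32.5% at nFGO and 31.1% at FGO. KO was higher without overlap for 22.7%, 29.7%, 28.8% and 28.9% in the same order.

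**Figure D3:**
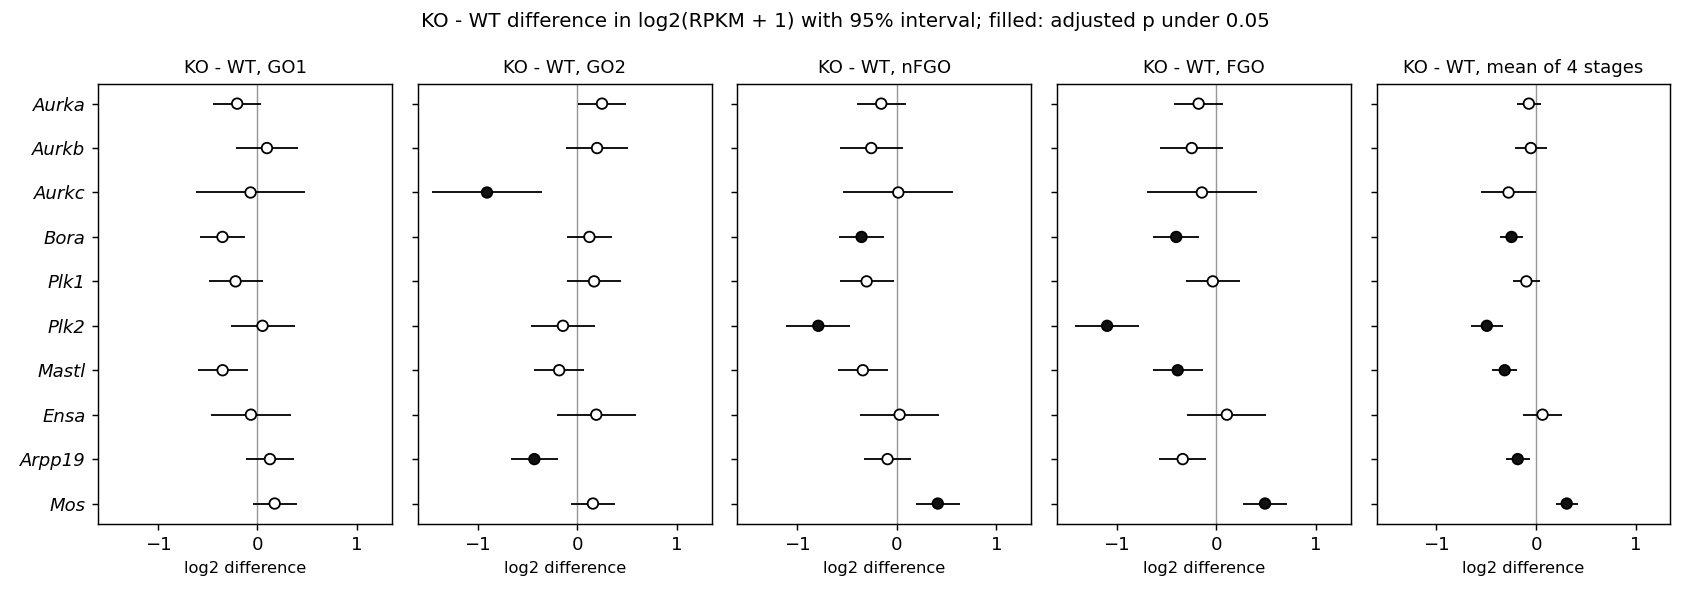
KO minus WT in log2(RPKM + 1) at each stage and averaged over the 4 stages, as points with 95% intervals from limma over 14557 genes, n = 2 libraries per group; filled points have an adjusted p under 0.05. Mos lies right of 0 and Plk2, Bora and Mastl left of 0 at FGO (0.49, -1.10, -0.40 and -0.39). Plk2 was admitted through WT nFGO and WT FGO alone, so its points are descriptions.

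Mos (ENSMUSG00000078365.5, chromosome 4, 3870657 to 3872105, minus strand, mm10), the kinase at the head of the oocyte MAP kinase cascade, was called higher in KO at nFGO and FGO, and none of the other 9 was called higher at any stage, except Aurka at GO2 with quantile normalization. In FGO its level was 717 and 682 RPKM in WT and 994 and 968 RPKM in KO. That is a ratio of means of 1.40 and a log2 difference of 0.49 ± 0.101 (adjusted p = 0.00681). In nFGO it was 595 and 576 RPKM in WT and 749 and 809.8 RPKM in KO (ratio 1.33, 0.41 ± 0.101, adjusted p = 0.0175). All 4 KO libraries of fully grown oocytes were above the 4 WT ones, an order that 11.8% of all genes shared. In growing oocytes the difference was smaller and not called: GO1 had 583 and 591 RPKM in WT and 583 and 751 in KO (0.17, adjusted p = 0.318), and GO2 had 697 and 634 in WT and 739.9 and 745 in KO (0.16, adjusted p = 0.384). The FGO call held with each of the 4 libraries left out (adjusted p 0.0249 to 0.0444), and the nFGO call with none of them (0.0521 to 0.107). Averaged over stages the difference was 0.31 ± 0.051 (adjusted p = 0.000740), and it held in all 16 fits that left out a library. In the authors' deposited table, log2 fold changes of Mos between mean normalized counts were 0.19, 0.16, 0.40 and 0.48 at GO1, GO2, nFGO and FGO.

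Mastl (ENSMUSG00000026779.6, chromosome 2, 23115606 to 23156024, minus strand), the Greatwall kinase, was lower in both KO libraries than in both WT libraries at all 4 stages, as were 5.46% of all genes. Its values were 92.9 and 109 RPKM in WT GO1 and 75.2 and 82.7 in KO GO1, and at GO2 96.0 and 97.4 in WT and 87.5 and 83.0 in KO. In fully grown oocytes they were 195 and 231 RPKM in WT nFGO and 161 and 174 in KO nFGO, and 179 and 159.6 in WT FGO and 137 and 121 in KO FGO. The ratios of means lay between 0.763 and 0.882. Averaged over stages Mastl fell by 0.31 on the log2 scale (SE 0.058, adjusted p = 0.00144), and this held in all 16 fits that left out a library. Of single stages only FGO was called (-0.39 ± 0.115, adjusted p = 0.0363), and no fit with 1 of its 4 libraries left out kept that call (adjusted p 0.0531 to 0.215). GO1 and nFGO gave similar differences that were not called (-0.35, adjusted p = 0.0899, and -0.34, adjusted p = 0.0648). The authors' deposited table gave smaller log2 fold changes for Mastl, -0.21, -0.13, -0.15 and -0.25 at GO1, GO2, nFGO and FGO. By RefSeq, 583 bases of Mastl overlap the mitochondrial protease gene Yme1l1, whose reads cannot be told apart there because counting is not stated to use strand. Yme1l1 was called in no KO-WT comparison (adjusted p 0.510 to 0.956).

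Arpp19 (ENSMUSG00000007656.13, chromosome 9, 75037614 to 75060313, plus strand), the more abundant Greatwall substrate, fell in KO at GO2. Its libraries were at 515 and 509 RPKM in WT and at 389 and 371 RPKM in KO (-0.43 ± 0.110, adjusted p = 0.0365). No fit that left out 1 of these 4 libraries kept the call, and it was lost with quantile normalization (-0.25, adjusted p = 0.147) and with no variance trend (0.0801). FGO had 613 and 632 RPKM in WT and 557 and 435 in KO, separated but with the KO libraries far apart (-0.34 ± 0.110, adjusted p = 0.0517). Without KO FGO replicate 1 it was called (-0.52, adjusted p = 0.0115), and without KO FGO replicate 2 the difference was -0.16. Levels in GO1 overlapped, at 431 and 374 in WT and 415 and 463 in KO, and in nFGO they were 785 and 754 in WT and 743 and 700.4 in KO (-0.09, adjusted p = 0.617). Averaged over stages Arpp19 fell by 0.18 (SE 0.055, adjusted p = 0.0223), a call lost without WT GO1 replicate 1, KO GO2 replicate 2 or KO nFGO replicate 2 (adjusted p = 0.0570, 0.0533 and 0.0501). That call was lost too with quantile normalization (-0.10, adjusted p = 0.141) and with no variance trend (0.0543). RefSeq places the long noncoding gene Gm51714 over 13457 bases of Arpp19, and that gene was not analysed here.

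Ensa (ENSMUSG00000038619.12, chromosome 3, 95624993 to 95632102, plus strand), the other Greatwall substrate, was called in no comparison. Its WT libraries were both at 27.0 RPKM in GO1, at 20.8 and 21.7 in GO2, at 13.1 and 17.1 in nFGO and at 13.3 and 18.1 in FGO. KO libraries were at 23.3 and 28.6, at 24.7 and 24.2, at 13.2 and 17.7, and at 15.9 and 17.7 RPKM in the same order. The KO-WT difference averaged over stages was 0.07, with a 95% interval from -0.13 to 0.26 (adjusted p = 0.621). As the substrates share their role, the ratio of Arpp19 to Ensa was taken within each library: it was 15.9 and 13.9 in WT GO1 and 59.8 and 44.0 in WT nFGO. At GO2 it was 24.7 and 23.4 in WT and 15.8 and 15.3 in KO, where KO GO1 had 17.8 and 16.2. In KO nFGO it was 56.1 and 39.5. At FGO it was 46.1 and 34.9 in WT and 35.1 and 24.5 in KO. KO and WT overlapped at nFGO and at FGO.

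Bora (ENSMUSG00000022070.7, chromosome 14, 99046222 to 99074540, plus strand), the cofactor through which Aurora A activates Plk1, fell in KO in fully grown oocytes. FGO libraries were at 56.4 and 58.1 RPKM in WT and at 40.9 and 45.3 RPKM in KO (ratio 0.753, -0.40 ± 0.105, adjusted p = 0.0202). nFGO libraries were at 50.0 and 54.0 RPKM in WT and 38.8 and 42.2 in KO (ratio 0.779, -0.35 ± 0.105, adjusted p = 0.0397). All 4 KO libraries lay below the 4 WT ones, as for 13.9% of all genes. The FGO call was kept without KO FGO replicate 2 (adjusted p = 0.0469) and lost without each of the other 3 libraries (0.0639 to 0.127), and the nFGO call was lost without each of its 4 (0.0750 to 0.216). In GO1 the libraries were at 40.7 and 44.4 RPKM in WT and 31.5 and 34.7 in KO (-0.35, adjusted p = 0.0655), and in GO2 they were at 32.7 and 33.6 in WT and 34.9 and 37.6 in KO (0.12, adjusted p = 0.530). GO2 was thus the stage at which KO was not below WT. Averaged over stages Bora fell by 0.25 (SE 0.052, adjusted p = 0.00371), which held in all 16 fits that left out a library. A stretch of 77 bases of Bora overlaps Mzt1, a gamma-tubulin complex gene, which was also lower on average (-0.29, adjusted p = 0.00259) and at GO2 (-0.42, adjusted p = 0.0483), where Bora was not, and was not called at nFGO or FGO (adjusted p = 0.183 and 0.573).

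Plk1 (ENSMUSG00000030867.7, chromosome 7, 122159439 to 122169873, plus strand), which Bora helps to activate, was called in no KO-WT comparison. WT libraries were at 89.9 and 87.8 RPKM in GO1, 79.5 and 68.7 in GO2, 99.2 and 99.5 in nFGO and 111 and 111 in FGO. KO libraries were at 66.1 and 87.7, 82.7 and 83.8, 77.4 and 83.5, and 102 and 114 RPKM. The nFGO groups were separate (-0.30 ± 0.124, adjusted p = 0.121), and the FGO groups overlapped (-0.04, 95% interval -0.31 to 0.23). Without KO GO1 replicate 2, which leaves 1 KO GO1 library, the GO1 differences were -0.42 for Plk1, -0.41 for Aurka and -0.42 for Bora. With both libraries they were -0.22, -0.20 and -0.35. KO GO1 replicate 1 was the lower KO library for these 3 genes.

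Plk2 (ENSMUSG00000021701.8, chromosome 13, 110395046 to 110400844, plus strand) was the least abundant of the 10. WT libraries of fully grown oocytes were at 1.24 and 1.09 RPKM in nFGO and 1.15 and 1.22 RPKM in FGO. KO libraries were at 0.235 and 0.273 RPKM in nFGO, and at 0.0401 and 0 RPKM in FGO. No KO library of any stage was above 0.273 RPKM. In growing oocytes all libraries were low, at 0 and 0.198 RPKM in WT GO1, 0.165 and 0.103 in KO GO1, 0.271 and 0.0797 in WT GO2, with 0.127 and 0 for KO GO2. The KO-WT difference was -0.79 ± 0.148 at nFGO and -1.10 ± 0.148 at FGO. Because Plk2 passed the filter through the WT libraries of these 2 stages, these differences are descriptions. In the fit with no filter, which it entered whatever its level, the adjusted p was 0.00138 at nFGO and 0.000145 at FGO. On the log2(RPKM + 1) scale these values understate the change of a gene near 1 RPKM: with a pseudocount of 0.1 the FGO difference was -3.44, and the nFGO difference was -1.84 and no longer called (adjusted p = 0.0686). The authors' deposited table gives mean normalized counts for Plk2 of 52.3 in WT and 0.853 in KO at FGO (log2 fold change -5.94), 42.3 and 5.63 at nFGO (-2.91), 7.09 and 3.35 at GO2 (-1.08) and 4.83 and 6.40 at GO1 (0.41).

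Aurka (ENSMUSG00000027496.15, chromosome 2, 172356190 to 172370535, minus strand) was called in no KO-WT comparison. WT libraries were both at 154 RPKM in GO1, at 133 and 135 in GO2, at 217 and 219 in nFGO and at 268 and 256 in FGO. KO libraries were at 115 and 154, 154 and 165, 187 and 204, and 232 and 231 RPKM in the same order. KO was above WT at GO2 (0.25 ± 0.112, adjusted p = 0.198) and below it at nFGO (-0.16 ± 0.112, adjusted p = 0.384) and FGO (-0.18 ± 0.112, adjusted p = 0.301), with separate libraries each time and none of these differences called. By RefSeq, Aurka overlaps the RNA cleavage factor gene Cstf1 by 242 bases, and Cstf1 was called in no KO-WT comparison (adjusted p 0.0881 to 0.913).

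Aurkb (ENSMUSG00000020897.12, chromosome 11, 69045647 to 69051664, plus strand) was low at each stage. WT libraries were at 11.1 and 11.8 RPKM in GO1, 10.8 and 9.15 in GO2, 9.88 and 11.5 in nFGO and 12.6 and 14.2 in FGO. KO libraries were at 11.3 and 13.4, 11.5 and 11.7, 8.38 and 9.19, and 10.6 and 11.7 RPKM. KO was separately lower at nFGO and FGO, without a call (-0.26, adjusted p = 0.259, and -0.25, adjusted p = 0.266), and the average over stages was -0.05 with a 95% interval from -0.21 to 0.11.

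Aurkc (ENSMUSG00000070837.5, chromosome 7, 6995300 to 7003091, plus strand), the Aurora kinase that joins the chromosomal passenger complex in germ cells, fell in KO at GO2. The libraries there were at 251 and 237 RPKM in WT and at 132 and 127 RPKM in KO, a ratio of 0.532 with tight replicates (-0.90 ± 0.253, adjusted p = 0.0499). The shared estimate of spread for Aurkc is wide because replicates differ at other stages: 201 and 222 RPKM in WT GO1, 178 and 227 in KO GO1, 195 and 283 in WT nFGO, 259.9 and 217 in KO nFGO, 201 and 359 in WT FGO and 205 and 289 in KO FGO. KO and WT overlapped at each of those stages. No fit that left out a GO2 library kept the call. It was also lost with a pseudocount of 0.1 or 5 RPKM (adjusted p = 0.0526 and 0.0514), with no filter (0.0629), with quantile normalization (0.0704) and with no variance trend (0.0726). The authors' deposited log2 fold change of Aurkc at GO2 was -0.81, and at GO1, nFGO and FGO it was -0.12, -0.11 and -0.10.

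The balance of the oocyte Aurora kinases was read as the ratio of Aurkc to Aurka within each library. In growing WT oocytes it was 1.31 and 1.44 at GO1 and 1.89 and 1.75 at GO2. KO libraries had 1.54 and 1.48 at GO1 and 0.86 and 0.77 at GO2. In fully grown oocytes the ratio was between 0.75 and 1.40 with KO and WT overlapping, a range that also holds the KO GO2 values. These ratios are descriptions, with no test.

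**Figure D4:**
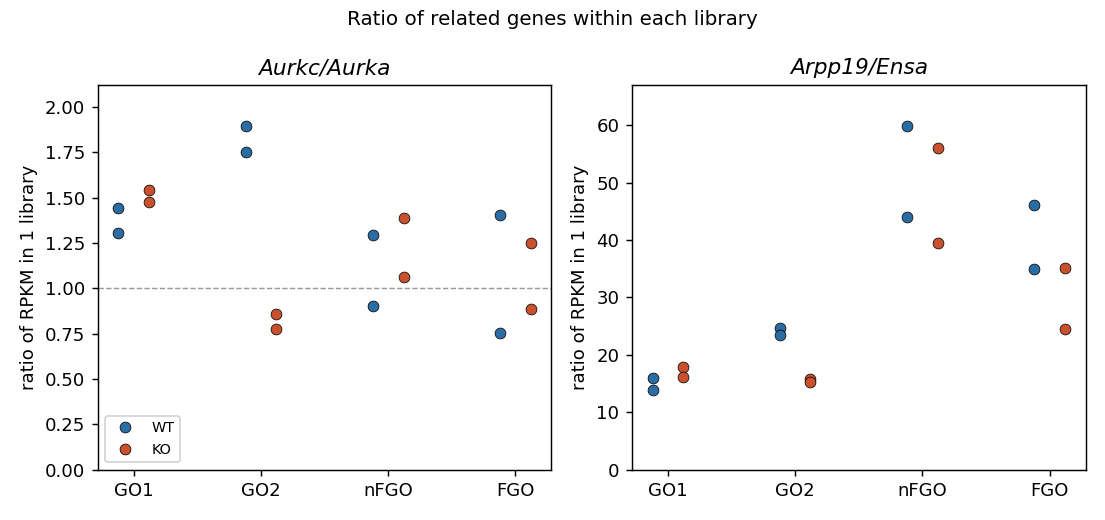
Ratio of RPKM values within each library for Aurkc to Aurka (left, dashed line at 1) and Arpp19 to Ensa (right), linear axes from 0, blue WT and red KO, 2 libraries per group. At GO2 the KO libraries lie below the WT libraries in both panels, 0.86 and 0.77 against 1.89 and 1.75 on the left and 15.8 and 15.3 against 24.7 and 23.4 on the right.

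Whether the KO effect changed between stages was tested directly as an interaction. From GO2 to FGO, 0 of the 9 genes other than Plk2 were called, where 3.8% of all genes were, with 4 of the 9 at an unadjusted p under 0.05 (20.6% of all genes). For Plk2 the difference of effects was -0.96 ± 0.209 (adjusted p = 0.0283, and 0.0111 in the fit with no filter), which its way through the filter bears on. That call was kept without WT GO2 replicate 1 (adjusted p = 0.0409) and lost without each of the other 7 libraries (0.0597 to 0.109), WT FGO replicate 2 among them (0.0736). Bora was nearest of the others (-0.53 ± 0.148, adjusted p = 0.0712). From GO1 to GO2 none was called (4% of all genes were), with 5 at an unadjusted p under 0.05 (21.9% of all genes), the nearest being Arpp19 (-0.55 ± 0.155, adjusted p = 0.0653). From nFGO to FGO none was called and none had an unadjusted p under 0.05, where 0.0618% and 8.28% of all genes did. For Mos, the KO effect at FGO less that at GO2 was 0.33 ± 0.143 and not called (adjusted p = 0.219).

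The other genes of these pathways were taken from lists that overlap in part, with 63 genes listed and 57 tested. Averaged over the stages, 2 were called higher in KO and 20 lower, beside 14.3% and 18.8% of all genes, and their median difference was -0.10, beside -0.01 for all genes. Without the nFGO stage 1 was higher and 8 were lower (9.2% and 13.7% of all genes). At single stages the counts higher and lower were 1 and 4 at GO1, 0 and 3 at GO2, 1 and 12 at nFGO and 1 and 9 at FGO. The shares of all genes were 2.16% and 4.47% at GO1 and 2.96% and 4.68% at GO2. They were 6.77% and 9.4% at nFGO and 7.67% and 10.2% at FGO. Without WT FGO replicate 2 or KO FGO replicate 2, each of which leaves 1 library in a group, fewer pathway genes were called at FGO. Fewer of all genes were called there too. In WT growth from GO2 to FGO 23 of the 57 were called higher and 13 lower, beside 26.3% and 22.1% of all genes. The values that follow are KO-WT log2 differences averaged over the 4 stages with their adjusted p. They include the nFGO stage, and counts by list were not taken without it.

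Of 14 tested Aurora partners 3 fell and 1 rose, shares near the 18.8% lower and 14.3% higher of all genes or below them. The falls were in Nedd1, which recruits gamma-tubulin to spindles (-0.41, adjusted p = 0.00266), the checkpoint kinase gene Bub1 (-0.33, adjusted p = 0.000740) and the Aurora A activator Tpx2 (-0.25, adjusted p = 0.0143). Sgo2a, whose product protects cohesin at meiotic centromeres, rose (0.18, adjusted p = 0.0470). Birc5, the passenger complex subunit survivin and the most abundant of the list at 1446 RPKM, was not called (-0.04, adjusted p = 0.450).

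Polo substrates and docking partners had 7 of 15 lower and 0 higher, beside 18.8% and 14.3% of all genes. This count includes nFGO. Without that stage 8 of the 57 genes of all lists were lower, beside 13.7% of all genes. Those lower were Ect2, a nucleotide exchange factor of cytokinesis (-0.42, adjusted p = 0.000276), Fbxo43, the Emi2 inhibitor of the anaphase-promoting complex (-0.41, adjusted p = 0.0299), Bub1, and the checkpoint gene Bub1b (-0.32, adjusted p = 0.00522). Cdc25c, a phosphatase that activates Cdk1 (-0.28, adjusted p = 0.0263), the kinesin gene Kif20b (-0.24, adjusted p = 0.00571) and the microtubule bundler Prc1, the most abundant of the list at 613 RPKM (-0.20, adjusted p = 0.00923), fell too. Of the 2 other Polo family kinases tested, the centriole kinase Plk4 fell (-0.28, adjusted p = 0.0167), and Plk3 was not called (-0.35, adjusted p = 0.0990).

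The list of the Mos-MAPK cascade also holds genes that are not its kinases, such as chaperone genes. Beside 18.8% lower and 14.3% higher of all genes, 6 of its 12 tested genes fell and 0 rose, a count that includes nFGO. Among them were Rps6ka3, which encodes the ribosomal S6 kinase RSK2 (-0.38, adjusted p = 0.000249), the chaperone genes Hsp90aa1 (-0.34, adjusted p = 0.000242) and Hsp90ab1 (-0.26, adjusted p = 0.000970), Fbxo43, and the Emi1 gene Fbxo5 (-0.27, adjusted p = 0.0281). Hsp90aa1 was the most abundant of the list, at 3465 RPKM. Map2k1 and Map2k2, which encode the kinases that Mos phosphorylates, were not called (0.09, adjusted p = 0.463, and -0.01, adjusted p = 0.965).

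Of the Cdk1 and cyclin B list 4 of 14 fell and 1 rose, beside 18.8% and 14.3% of all genes. Ccnb2 (-0.47, adjusted p = 0.000103) and Ccnb3 (-0.41, adjusted p = 0.00417), which encode cyclins B2 and B3, and Cdc25c fell. Cks2, a Cdk1-binding subunit and the most abundant of the list at 887 RPKM, fell on average (-0.11, adjusted p = 0.0455) but not at every stage. Its differences were 0.31 at GO1, -0.33 at GO2, -0.19 at nFGO and -0.22 at FGO. Ccno, which encodes cyclin O, rose (0.47, adjusted p = 1.01e-05), with 0.91 at FGO (adjusted p = 4.76e-05). Neither Cdk1 (-0.11, adjusted p = 0.320) nor Ccnb1, the cyclin B1 gene (-0.14, adjusted p = 0.104), was called. Of 7 tested genes of the phosphatase PP2A-B55, the B55 regulatory subunits Ppp2r2b, the most abundant at 98.2 RPKM (-0.39, adjusted p = 0.00184), and Ppp2r2a (-0.30, adjusted p = 0.0130) fell and none rose.

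**Figure D5:**
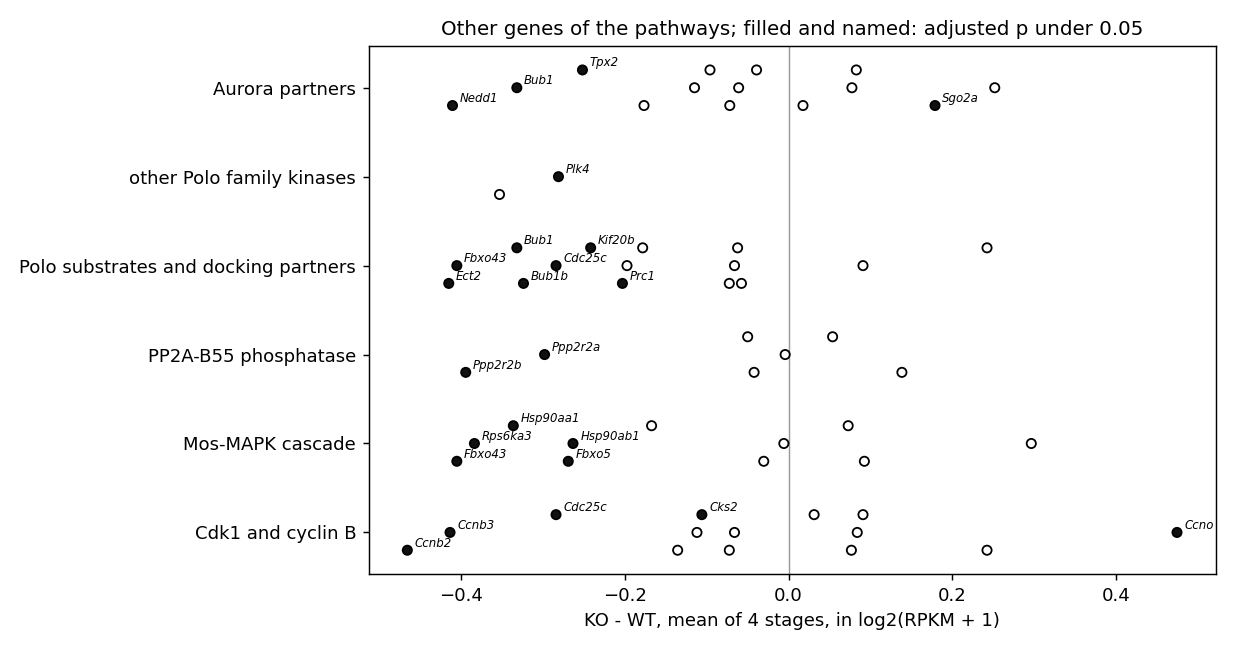
KO minus WT averaged over 4 stages, in log2(RPKM + 1), for the other genes of the pathways reported here, by list, each point a gene; genes on more than 1 list appear more than once, and vertical offsets only separate points. Filled, named points have an adjusted p under 0.05: most lie left of 0, Ccnb2 furthest at -0.47, and Ccno (0.47) and Sgo2a (0.18) lie right of it.

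For the 6 members with a KO-WT call, the genes with the most similar pattern were taken by Pearson's r of log2(RPKM + 1) over the 16 libraries, which share stages and genotypes, among genes with a mean of at least 5 RPKM. Plk2 was most like Rps6ka3 (r = 0.965), Wwp1 (0.956) and Fabp7 (0.953). Bora was most like Fbxo30 (r = 0.970), Prep and Ttk (0.969 each), and Mastl was most like Rasa2 (0.975), Gm36159 (0.973) and Kbtbd8 (0.971). Arpp19 was most like Gm14277 (r = 0.979), with Pfdn4 also close (0.958), and Mos most like Bcl7c (0.930), Ankrd54 (0.904) and Thap7 (0.894). Aurkc had the least close neighbours, Vkorc1 (r = 0.819), Pofut2 (0.795) and Tmem33 (0.792).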

How the data were processed

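RNA-seq libraries were made with a SMARTer Ultra Low Input kit and Nextera XT and read as single ends, per the labels' protocols. Per the submitters' processing notes, the tools were HISAT2 2.1.0, Trim Galore 0.4.5, Cuffnorm, Cufflinks 2.2.1, DESeq 1.34.1 and deepTools 3.0.2, and the build was mm10. The deposited values are RPKM per gene and library, per the file headers, and for each stage the authors' mean normalized counts (size-factor scaled signal) with the log2 fold change from WT to KO. Deposited p-values were not used. Of 16975 gene IDs, 35 with conflicting lines were left out. Whole reads were not recovered, so depth is unknown.

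limma 3.58.1 (R 4.3.3) was fitted to log2(RPKM + 1) of 14557 genes with 1 mean per group over 16 libraries (8 residual degrees of freedom, 4.01 prior) and a variance trend. P-values were adjusted by Benjamini-Hochberg within each of 11 comparisons. Simulated data held 50 genes changed by each fold tried, among 14557 genes. The changed genes had a mean of at least 5 RPKM, and noise was normal and independent between libraries. Far fewer genes changed there than were called in the data (17.8% at FGO, 33% in the average). The shares recovered may therefore differ in the data. For KO-WT at FGO, 4% of 1.25-fold, 36% of 1.5-fold and 82% of 2-fold changes were recovered. For the average over 4 stages these shares were 50%, 90% and 100%. False calls were 1.79% of calls at FGO and 7.1% in the average, the latter above the 0.05 threshold. A small difference not called at a single stage may therefore be a missed change. The 8 ATAC-seq samples were not analysed here.

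The genes and lists were chosen with earlier results of these data known. Named pathway genes are those called in the average over stages or at 2 or more stages, plus the most abundant of each list; the genes given for likeness are the 3 with the highest r. Map2k1, Map2k2, Plk3, Cdk1, Ccnb1 and genes overlapping a member were named after their values were seen. Alternatives changed the pseudocount, filter, scaling, variance trend, block, samples fitted and each library. The average without nFGO, and alternatives for pathway genes, were added after the data were seen. A few genes that the naming rule picked are not reported here.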

Additional observations from a re-analysis of the deposited data

Results flagged for a closer look

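The KO effect on Plk2 differed between FGO and GO2 by -0.96 on the log2(RPKM + 1) scale in a direct test of the difference (limma, adjusted p = 0.0283). Both WT FGO libraries (1.15 and 1.22 RPKM) exceeded both KO FGO libraries (0.0401 and 0 RPKM), and WT and KO overlapped at GO2. Plk2 passed the filter on low values only through WT libraries of fully grown oocytes, where it was high, so this call supports nothing by itself. In the fit with no filter the adjusted p was 0.0111. For 7 of the 8 libraries, leaving out that library ended the call.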

How the results depend on the processing

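Counts are of the 10 genes called, Plk2 included. All-gene calls, higher and lower, moved with the settings too. At GO2 they were 431 and 681 in the main fit and 371 and 472 with no variance trend. At FGO they were 1116 and 1480, and 424 and 648 with only the groups compared. At GO1 the count of 0 became 1 with a replicate block, where all-gene calls went from 314 and 651 to 343 and 690. It also moved in some fits with a library left out, which leave 1 library in a group. At GO2 the count of 2 became 1 with a pseudocount of 0.1 RPKM, with one of 5 RPKM or with no filter, and 0 with no variance trend. That count also fell with any library left out, as all-gene calls did. With quantile normalization it stayed at 2, with Aurka and Mos in place of Aurkc and Arpp19. At nFGO the count of 3 fell with any library left out, as all-gene calls did. At FGO 4 became 2 with only the groups compared. The FGO count also fell with any library left out, as all-gene calls did. From GO1 to GO2 in WT 0 became 1 with a minimum of 5 RPKM. For the KO effect at GO2 less that at GO1, 0 became 1 with equal library medians and 0 to 3 with a library left out. For FGO less GO2, 1 became 0 with a pseudocount of 0.1 RPKM, with a minimum of 5 RPKM (where Plk2 was not fitted) or with only the groups compared, and 0 to 1 with a library left out. The count over the 4 stages stayed between 4 and 7, and WT growth from GO2 to FGO between 5 and 6, with a library left out. Of the other pathway genes, the 10 called at FGO became 6 with only the groups compared and 4 to 10 with a library left out, and the 22 called over stages became 9 without nFGO and 17 to 27 with a library left out. The cause of these changes was not tested. No called difference changed sign.

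Replicate numbers did not pair the samples: over 28 pairs of groups, deviations of same-numbered libraries correlated at -0.184 to 0.131, and 1 pair was above 0.1. With a replicate block 1 gene was called at GO1, 1 from GO1 to GO2 in WT, and 2 for the KO effect at FGO less that at GO2. With 2 libraries per group and unknown depth, small changes of weakly expressed genes such as Plk2 are least certain.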
